A study of Mus musculus with 12 samples.

Results

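Transcripts of 10 genes of pericentral hepatocytes were measured by RNA sequencing in 12 mouse livers. Of these, 6 came from control mice and 6 from mice given Aspergillus oryzae A02, a filamentous food fungus, enriched in selenium. The genes were taken by symbol from the deposited table of 57010 genes: Glul (ENSMUSG00000026473), Slc1a2 (ENSMUSG00000005089), Rhbg (ENSMUSG00000104445), Oat (ENSMUSG00000030934), Cyp2e1 (ENSMUSG00000025479), Cyp1a2 (ENSMUSG00000032310), Lgr5 (ENSMUSG00000020140), Axin2 (ENSMUSG00000000142), Tbx3 (ENSMUSG00000018604) and Slc13a3 (ENSMUSG00000018459). All mice were wild-type C57BL/6J males, 6 weeks old when the study began, kept on a normal diet after 7 days of acclimatization. The selenium group was gavaged daily with the fungus, dissolved in saline, at 0.5 mg selenium per kg. The control group is labelled as not treated, and no source used here says whether it received saline. Since the selenium was given inside the fungus, the design does not separate the 2. The protocol names 10 mice per group, and the time under treatment is 8 weeks in the study design but 14 weeks in the sample descriptions. Values are TPM, a length-corrected share of all transcripts, so levels can be compared between genes.

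The liver lobule is ordered along the blood flow, from the portal vein to the central vein. Hepatocytes next to the central vein receive Wnt and Rspondin signals from neighbouring endothelial cells, and beta-catenin with TCF factors then keeps on a set of genes for glutamine synthesis and drug metabolism. Periportal hepatocytes lack this signal and are known for urea synthesis and gluconeogenesis. A label names hepatocytes and another names liver. Alb, the serum albumin gene of hepatocytes, stood at 10946 to 28130 TPM, while markers of other liver cells were also present, with summed TPM of 69.9 to 313 for 10 Kupffer cell markers and 27.1 to 70.9 for 12 endothelial markers. The RNA was read here as that of whole liver, although these levels alone cannot settle which label holds. In such RNA fewer cells of a zone and less RNA per cell cannot be told apart.

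The libraries differed in Dbp, a transcription factor gene with a daily rhythm in liver, in a way that crosses the groups. Its level was 15.7 TPM in control 5, 28.5 TPM in control 6, 31.5 TPM in selenium 1 and 53.6 TPM in selenium 5. The other 8 libraries lay between 0.72 and 1.44 TPM. No label states when in the day livers were taken. The comparison of each tested member is therefore also given in the 8 libraries with Dbp under 10 TPM. Mitochondrial-encoded genes took a mean of 17.3% of all TPM in controls and 11.6% with selenium, which bears on every TPM of the other genes, and the part of this in the changes was tested only by rescaling without those genes. Kupffer cell markers were all higher in mean with selenium, with a median log2 change of 0.40 over 10 genes, and their summed level was highest in selenium 3, 4 and 6 (313, 236 and 213 TPM). The median was 0.21 without selenium 3 and 0.62 without selenium 5. None of the 10 passed the test (limma, smallest adjusted p = 0.289). Medians were negative for 5 stellate cell markers (-0.30), 2 cholangiocyte markers (-0.52) and 5 erythroid markers (-0.43). The erythroid median was -0.02 without control 6, where the sum of these markers was 4270 TPM. The cholangiocyte median was -0.19 without control 5 and -0.83 without selenium 3. None of the markers in these 3 lists passed either.

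The members spanned a wide range of abundance. Cyp2e1 averaged 5446 TPM over the 12 libraries and ranked 28 among all genes. It made up 83.5% of the summed TPM of the 10 members. Oat followed at 487 TPM, Cyp1a2 at 333 TPM, Glul at 214 TPM and Slc1a2 at 25.6 TPM. The lowest were Slc13a3 at 6.02, Rhbg at 5.53, Tbx3 at 4.93, Axin2 at 2.64 and Lgr5 at 0.831 TPM. Cyp2e1 lay above Oat, Glul above Slc1a2, Slc1a2 above Slc13a3 and Axin2 above Lgr5 without overlap of their ranges. Tbx3 exceeded Axin2 in 12 of 12 libraries, although their ranges overlapped. Oat exceeded Cyp1a2 in 10 of 12 libraries and Cyp1a2 exceeded Glul in 10 of 12, so the order of these neighbours did not hold in every mouse. Slc13a3 exceeded Rhbg in 6 of 12 libraries and Rhbg exceeded Tbx3 in 6 of 12, and these 3 were not ordered beyond their spread.

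**Figure D1:**
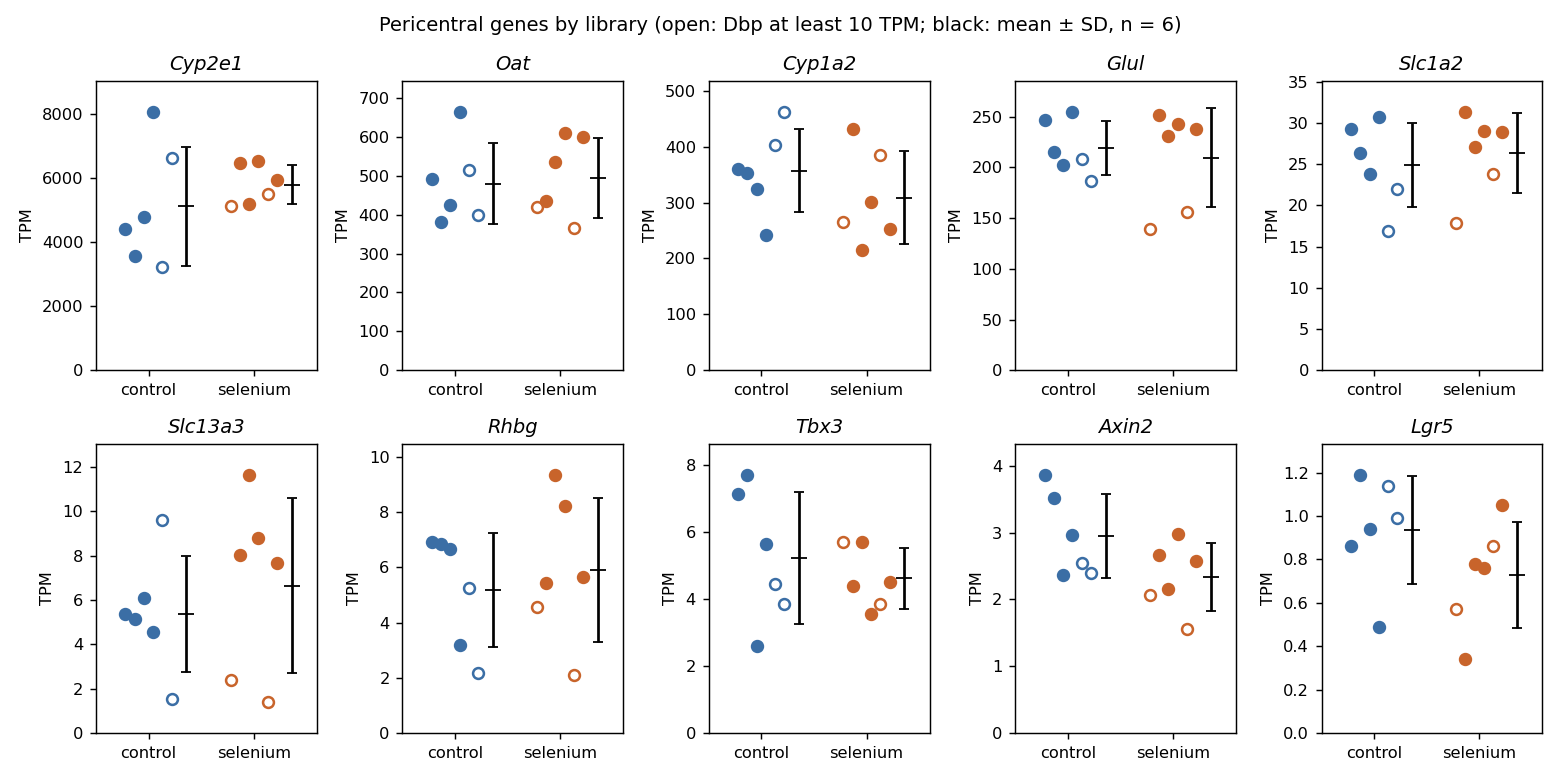
TPM of each pericentral gene (vertical axes, each from 0) in the 6 control and 6 selenium libraries; open circles are the 4 libraries with Dbp of at least 10 TPM, and black bars give the mean ± SD. The groups overlap in each of the 10 genes, and all 4 open circles lie below all 8 filled ones in Slc1a2.

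Glul, Slc1a2, Rhbg and Oat handle nitrogen. Glul encodes glutamine synthetase, which joins ammonium to glutamate in the last cells before the central vein. It was at 186 to 255 TPM in controls, with a median of 212 TPM, and at 139 to 252 TPM with selenium, with a median of 234 TPM. The groups overlapped, and the lowest values of all were selenium 1 at 139 TPM and selenium 5 at 156 TPM. Control means of 219 ± 26.4 TPM stood against 209.7 ± 48.9 TPM with selenium (mean ± SD, n = 6 per group here and below). The log2 change, selenium minus control on log2(TPM + 1), was -0.09 with a 95% interval of -0.44 to 0.26 (limma adjusted p = 0.809).

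Slc1a2 encodes a glutamate transporter that supplies the substrate of glutamine synthetase. Control libraries ran from 16.9 to 30.7 TPM with a median of 25.1 TPM, and selenium libraries from 17.8 to 31.3 TPM with a median of 28.0 TPM. Its lowest libraries came from both groups, control 5 at 16.9 TPM and selenium 1 at 17.8 TPM. The means were 24.8 ± 5.08 and 26.3 ± 4.86 TPM, a log2 change of 0.08 with an interval of -0.26 to 0.43 (limma adjusted p = 0.827). Oat, the mitochondrial ornithine aminotransferase that leads ornithine towards glutamate, was at 382 to 664 TPM in controls and at 366 to 609 TPM with selenium. Its means of 479.8 ± 104 and 494 ± 102 TPM differed by 0.04 on the log2 scale, with an interval of -0.32 to 0.40 (limma adjusted p = 0.920).

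Rhbg encodes a membrane channel for ammonia and ammonium. It varied more between mice than the preceding 3 genes, from 2.17 to 6.93 TPM in controls and from 2.1 to 9.36 TPM with selenium. The lowest library of each group had high Dbp, control 6 at 2.17 TPM and selenium 5 at 2.1 TPM, but control 4, with low Dbp, was at 3.18 TPM. Selenium 3 and 4 had the highest values, 9.36 and 8.24 TPM. The means were 5.17 ± 2.06 and 5.89 ± 2.60 TPM, and the log2 change of 0.14 had an interval of -0.49 to 0.77 (limma adjusted p = 0.841).

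Cyp2e1 and Cyp1a2 are cytochrome P450 enzymes of the pericentral zone. Cyp2e1, which oxidizes ethanol and paracetamol, ran from 3226 to 8047 TPM in controls with a median of 4594 TPM. Selenium libraries ran from 5128 to 6535 TPM with a median of 5703 TPM, inside the range of the controls. Control 4 at 8047 TPM and control 6 at 6610 TPM stood above every selenium library, and the other 4 controls below every selenium library. The coefficient of variation was 36.6% in controls and 10.7% with selenium, a difference in spread that was not tested. The means of 5105 ± 1868 and 5787 ± 618 TPM gave a log2 change of 0.25 with an interval of -0.19 to 0.69 (limma adjusted p = 0.550). The change was 0.40 without control 4, 0.13 without control 5 and 0.47 with quantile normalization, and passed in none of these.

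Cyp1a2, which oxidizes caffeine and is induced through the aryl hydrocarbon receptor, ranged from 242 to 462 TPM (median 356 TPM) in the control group and from 215 to 431 TPM (median 284 TPM) in the selenium group. The groups overlapped over most of this range. Its lowest values were selenium 3 at 215 TPM and control 4 at 242 TPM, the latter being the library with the most Cyp2e1 and Oat. The means were 357 ± 74.0 and 309 ± 83.3 TPM, a log2 change of -0.22 with an interval of -0.63 to 0.18 (limma adjusted p = 0.556).

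Stretches of promoter are shown for Glul and Slc1a2, whose levels moved together between mice (r = 0.80 over the 12 libraries), and for Cyp1a2 and Oat, whose levels ran against each other (r = -0.62). They are the 250 bases before the annotated start, 5′ to 3′ on the strand of the gene, from RefSeq on GRCm38.p6, which is another build than that of the deposited values. Capitals mark CTTTGA or its complement TCAAAG, the core read by TCF and LEF, the factors that carry the beta-catenin signal.
Glul, chr1:153899679-153899928, plus strand: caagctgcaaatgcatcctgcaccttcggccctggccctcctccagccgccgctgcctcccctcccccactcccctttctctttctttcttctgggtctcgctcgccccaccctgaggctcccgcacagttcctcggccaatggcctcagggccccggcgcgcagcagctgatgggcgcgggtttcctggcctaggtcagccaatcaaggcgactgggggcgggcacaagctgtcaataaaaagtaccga
Slc1a2, chr2:102706188-102706437, plus strand: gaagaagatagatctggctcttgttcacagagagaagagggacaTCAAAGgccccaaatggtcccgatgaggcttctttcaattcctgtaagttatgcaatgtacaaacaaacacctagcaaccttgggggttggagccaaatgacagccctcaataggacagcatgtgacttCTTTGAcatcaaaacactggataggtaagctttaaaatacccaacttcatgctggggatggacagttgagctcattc
Cyp1a2, chr9:57683656-57683905, minus strand: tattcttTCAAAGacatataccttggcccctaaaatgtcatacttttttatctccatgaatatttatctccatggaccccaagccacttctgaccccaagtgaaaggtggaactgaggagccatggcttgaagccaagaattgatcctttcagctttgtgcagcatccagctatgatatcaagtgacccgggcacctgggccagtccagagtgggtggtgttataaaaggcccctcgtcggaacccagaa
Oat, chr7:132576399-132576648, minus strand: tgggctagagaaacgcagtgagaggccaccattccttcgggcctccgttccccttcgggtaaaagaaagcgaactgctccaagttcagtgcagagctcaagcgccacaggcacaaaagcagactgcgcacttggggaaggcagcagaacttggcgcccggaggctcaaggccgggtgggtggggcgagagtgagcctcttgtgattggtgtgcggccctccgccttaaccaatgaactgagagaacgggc

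The core stood in 2 places in Slc1a2, starting 206 and 77 bases before the start, and in 1 place in Cyp1a2, 243 bases before it. Neither the Glul nor the Oat stretch held it. Of the 10 members 7 had a promoter in the RefSeq table (not Rhbg, Lgr5 and Tbx3), and the core was found in 3 of these 7, the third being Cyp2e1. It was found in 13.8% of 32851 promoters of the same length. TATAAA, the TATA box, lay 29 bases before the start in Cyp1a2 and 31 bases before it in Cyp2e1, 2 of 7 members against 12.4% of all promoters, searched on both strands. Neither the D-box TTANGTAA, read by Dbp and its relatives, nor GCGTG, the core read by the aryl hydrocarbon receptor, was in any of the 7 stretches on either strand, with shares of 2.06% and 28.2% of all promoters. These windows say nothing of sites farther away.

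Lgr5, Axin2 and Tbx3 stand closest to the Wnt signal itself. Lgr5, a receptor for Rspondins, reached 1 TPM in only 3 of 12 libraries and was not tested, since the test took genes with at least 1 TPM in at least 6 libraries. Control libraries held 0.49 to 1.19 TPM and selenium libraries 0.34 to 1.05 TPM, with means of 0.935 ± 0.250 and 0.727 ± 0.245 TPM. Axin2, a scaffold of the beta-catenin destruction complex and itself a target of the pathway, ran from 2.37 to 3.87 TPM in controls and from 1.56 to 2.98 TPM with selenium. Controls 1 and 2, at 3.87 and 3.52 TPM, exceeded every selenium library, and the other 4 controls lay within the selenium range. Means of 2.95 ± 0.629 and 2.34 ± 0.507 TPM gave a log2 change of -0.24 with an interval of -0.53 to 0.05. Axin2 had the smallest adjusted p of the members (limma adjusted p = 0.366). When mitochondrial-encoded genes were taken out and TPM rescaled, its log2 change was -0.33 (limma, unadjusted p = 0.0309, adjusted p = 0.190). The median over all genes tested moved the same way there, from -0.03 to -0.11. Tbx3, a T-box transcription factor, ranged from 2.61 to 7.72 TPM among controls and from 3.55 to 5.72 TPM among selenium libraries. All 6 of its selenium values lay within the control range, and its log2 change of -0.10 had an interval of -0.53 to 0.33 (limma adjusted p = 0.830).

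Slc13a3 encodes a sodium-coupled transporter of dicarboxylates. It varied most of all members, with an 8.39-fold span over the 12 libraries. Controls ran from 1.52 to 9.61 TPM with a median of 5.25 TPM, and selenium libraries from 1.39 to 11.7 TPM with a median of 7.85 TPM. Control 6, selenium 1 and selenium 5, all with high Dbp, were lowest at 1.52, 2.41 and 1.39 TPM, while control 5, also with high Dbp, was the highest control at 9.61 TPM. The means were 5.38 ± 2.61 and 6.66 ± 3.96 TPM, and the log2 change of 0.16 had an interval of -0.72 to 1.04 (limma adjusted p = 0.874).

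In all, 0 of the 9 tested members passed a Benjamini-Hochberg adjusted p of 0.05 in limma, where 0.331% of the 9980 genes tested did. None had an unadjusted p under 0.05 in this main fit, against 18.5% of all genes tested, and in none were the groups of 6 apart, against 1.63%. Of the 9 log2 changes 5 were positive and 4 negative, with a median of 0.04, beside a median of -0.03 and 45.4% positive over all genes tested. The exact permutation test per gene gave 0 members and 1744 genes an unadjusted p under 0.05. It called 0 of all 9980 genes after adjustment, so its count of members says nothing particular to them. The intervals bound what could have been missed. For Glul they allow between 0.738 and 1.19 times the control level, for Oat 0.803 to 1.32 times, and for Slc13a3 0.607 to 2.05 times, all on the log2(TPM + 1) scale, which understates changes of low genes. In the authors' deposited table the adjusted p of the 10 members ran from 0.452 to 0.982, and 0 were under 0.05.

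**Figure D2:**
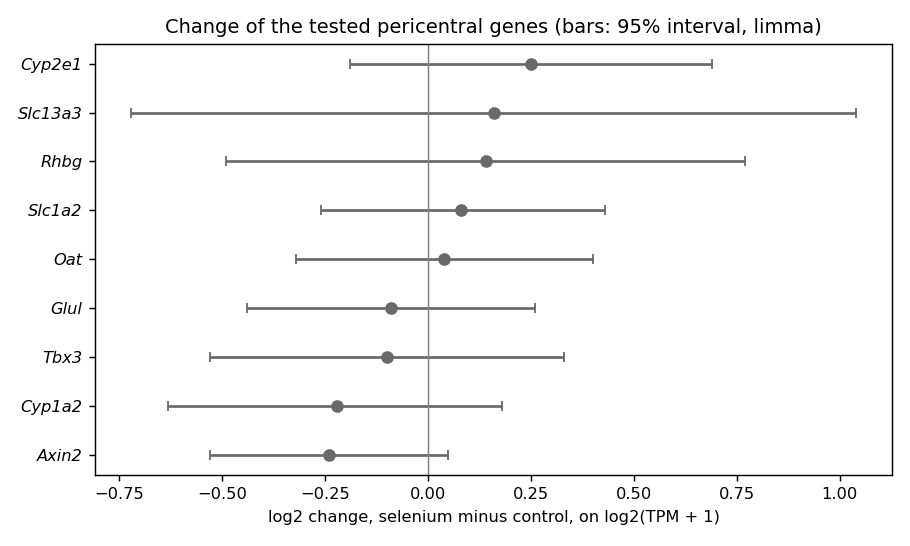
Log2 change (horizontal axis, selenium minus control on log2(TPM + 1)) of the 9 tested pericentral genes, with 95% intervals from limma. Every interval crosses 0, and the widest is that of Slc13a3, from -0.72 to 1.04.

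The comparison was repeated without the 4 libraries of high Dbp. In the remaining 4 controls Slc13a3 was at 4.54 to 6.10 TPM and in the remaining 4 selenium libraries at 7.68 to 11.7 TPM, so these did not overlap. Such a gap was found in 1 of the 9 members and in 14.9% of all genes tested. The log2 change of Slc13a3 was 0.66 with an SE of 0.15, and it did not pass (limma adjusted p = 0.0724), while 0.471% of all genes tested and 0 of the 9 members did. Over all alternatives tried for Slc13a3 the adjusted p from limma ran from 0.0724 to 0.979, and its log2 change was -0.09 without control 6, -0.03 without selenium 3 and 0.45 without selenium 5. Kupffer cell markers were highest in 3 of these 4 selenium libraries, as given above, and their part in the difference was not tested. Glul was at 202 to 255 TPM in the 4 controls and 231 to 252 TPM in the 4 selenium libraries. Its log2 change was 0.07, beside a median of 0.06 over all genes tested there. The changes of the other tested members in these 8 libraries were 0.28 for Cyp2e1, -0.12 for Cyp1a2, 0.17 for Oat, 0.08 for Slc1a2, 0.26 for Rhbg, -0.21 for Axin2 and -0.23 for Tbx3, with adjusted p of 0.442 to 0.789 (limma).

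Levels by Dbp are given as values with no test. The mean was lower in the 4 libraries with high Dbp in 8 of the 9 tested members, and in 73.5% of all genes tested, so most genes shared this direction. Slc1a2 was at 16.9 to 23.8 TPM in the 4 libraries with high Dbp and at 23.8 to 31.3 TPM in the other 8, the highest of the former (selenium 5, 23.75 TPM) lying just under the lowest of the latter (control 3, 23.82 TPM). All 4 lay below all 8 in this 1 member, and in 0.982% of all genes tested. Glul was at 139 to 208 TPM in the former and 202 to 255 TPM in the latter. Mean levels were 3.52 and 6.54 TPM for Rhbg and 2.14 and 2.89 TPM for Axin2. Cyp1a2 went the other way, with means of 379 TPM in the 4 and 309.8 TPM in the 8. Selenium 5, which had the most Dbp, held the minimum of 4 of the 9 tested members: Oat, Rhbg, Axin2 and Slc13a3. How many of all genes tested had their minimum there was not counted, so this is not read as particular to the members.

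**Figure D3:**
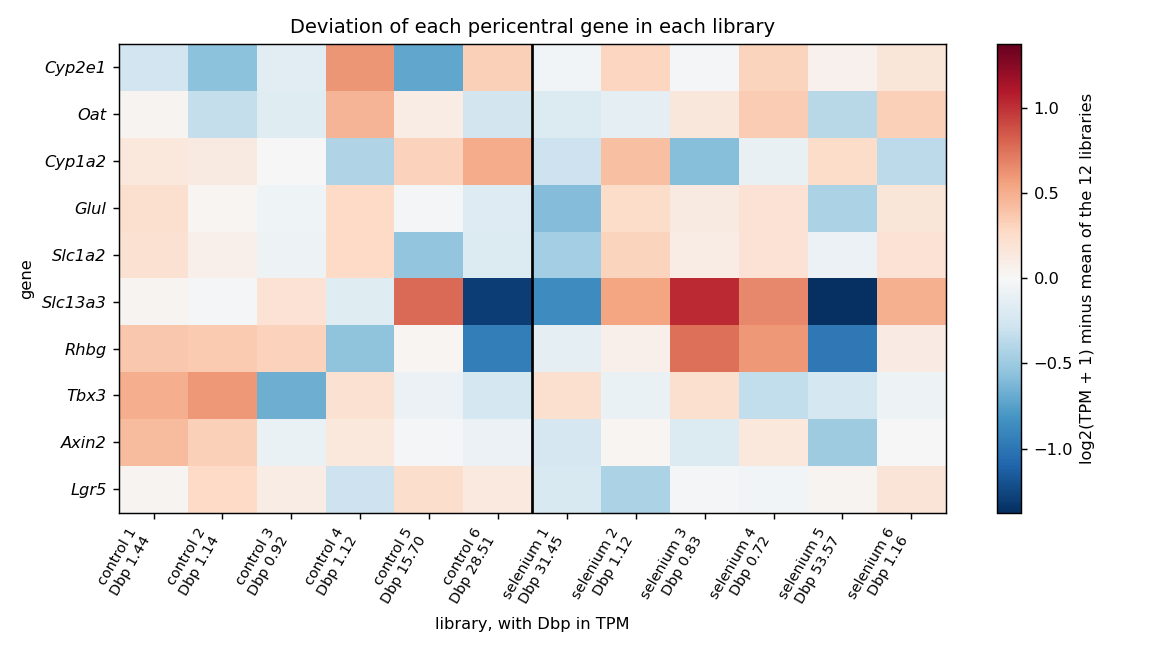
Log2(TPM + 1) of each pericentral gene (rows) in each library (columns, with Dbp in TPM) minus the gene's mean over the 12 libraries; red is above and blue below. Slc13a3 and Rhbg have the strongest colours, with deep blue in control 6 and selenium 5, where Dbp was 28.5 and 53.6 TPM.

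The spread of the members within a group also differed by gene. On log2(TPM + 1) the within-group SD was 0.83 for Slc13a3 and 0.59 for Rhbg, higher than in 97.5% and 93.8% of all genes tested. It was 0.23 for Axin2, at the 35.4th percentile, and 0.29 to 0.38 for the other 6, against a median of 0.26 over all genes tested. Low genes are pulled together by the pseudocount of 1, so the value for Axin2 cannot be set beside that of Glul directly.

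The members did not vary as a single block. Correlations were taken on log2(TPM + 1) with the group means removed, as a description, and the 12 points share the TPM scale and include the 4 libraries of high Dbp. Of the 36 pairs 25 had a positive r, with a median of 0.26, beside 0.13 over all pairs of tested genes. An r of at least 0.7 was found in 4 pairs, and in 5.27% of all pairs of tested genes. Glul and Slc1a2 had an r of 0.80 and a rank correlation of 0.90, and their r was 0.73 without selenium 1 and 5, the 2 libraries farthest from the median of Glul. In the 8 libraries with low Dbp their r was 0.97, a value reached by 0.0826% of all gene pairs there.

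Not every pair kept its sign without the libraries of high Dbp. Rhbg and Slc13a3 had an r of 0.84 (rank correlation 0.75), which was 0.55 without selenium 5 and control 6 and 0.77 in the 8 libraries. Glul and Slc13a3 had an r of 0.75 (rank correlation 0.55), but -0.57 in the 8 libraries, and Glul and Rhbg went from 0.53 (rank correlation 0.38) to -0.60. In total 14 of the 36 pairs had the opposite sign there, and the share of all gene pairs that did so was not counted. The median r of the 36 pairs there was 0.03, beside 0.04 over all pairs of tested genes. An r of at least 0.7 was found there in 3 of the 36 pairs, and in 8.65% of all pairs of tested genes. Cyp1a2 and Oat ran against each other, with an r of -0.62 (rank correlation -0.57) in 12 libraries, -0.48 without control 4 and selenium 2, and -0.68 in the 8. Cyp2e1, the most abundant member, had an r of 0.26 with Glul (rank correlation 0.45) and -0.43 with Rhbg (rank correlation -0.34), which were 0.62 and -0.81 in the 8 libraries.

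**Figure D4:**
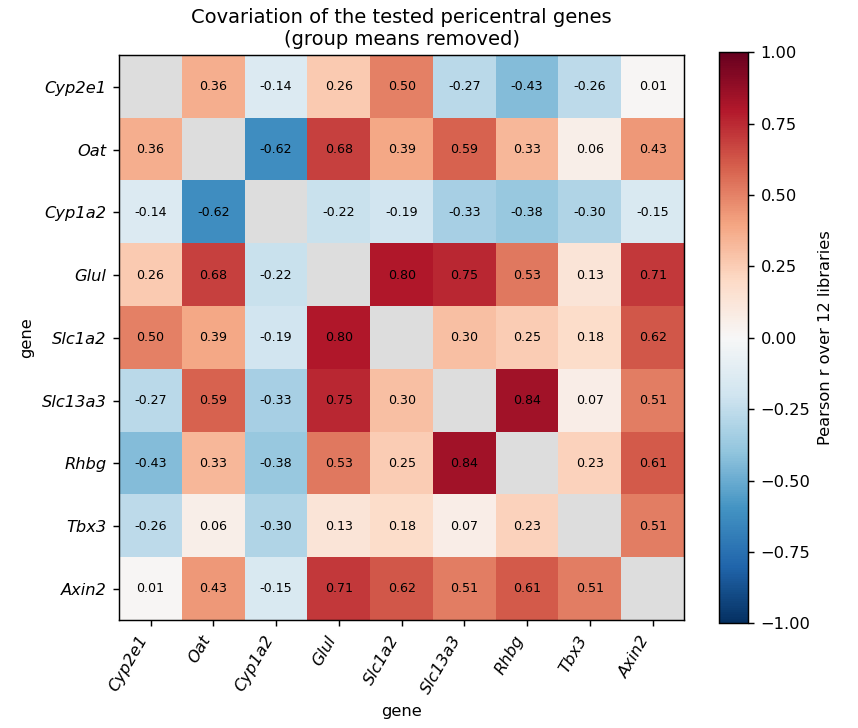
Pearson r over the 12 libraries for each pair of the 9 tested pericentral genes, after removing group means; red is positive and blue negative, and the diagonal is grey. The highest r is 0.84 for Rhbg and Slc13a3 and the lowest -0.62 for Cyp1a2 and Oat.

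Each member had its own closest companions among 5249 named genes with at least 5 TPM on average, ranked by r over the 12 libraries with group means removed. The closest to Glul were the metallothioneins Mt2 (r = 0.95) and Mt1 (0.92), which bind zinc and copper, and the arginyl-tRNA synthetase Rars (0.92). In the 8 libraries with low Dbp these were 0.57, 0.30 and 0.05. For Slc1a2 they were G6pc, the glucose-6-phosphatase of glucose release (0.93), Rasgef1b (0.92) and Gch1 (0.88), with 0.54, 0.81 and 0.05 in the 8 libraries. The likeness of Glul to Rars and of Slc1a2 to Gch1 was not seen within the libraries of low Dbp.

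Slc13a3 was most like the class I histocompatibility gene H2-D1 (0.98) and the plasma proteins haptoglobin, Hp (0.97), and hemopexin, Hpx (0.96), which had an r of 0.73, 0.77 and 0.85 in the 8 libraries. Rhbg was most like H2-Q6 (0.95), another class I gene whose reads may be shared with near-identical relatives, the small GTPase gene Rit1 (0.94) and the death receptor gene Fas (0.94). In the 8 libraries these stood at 0.90, 0.79 and 0.91. Both of the members that varied most had a class I gene as their closest companion.

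The companions of the P450 members and of Oat had an r of at least 0.92 in the 8 libraries. Cyp2e1 was most like Dpys (0.95) and Upb1 (0.94), enzymes of pyrimidine breakdown, and the retinol saturase Retsat (0.95), with 0.94, 0.97 and 0.96 there. Cyp1a2 was most like Bdh2 (0.94), the heme synthesis enzyme Alad (0.92) and the cytochrome b5 reductase Cyb5r3 (0.90), with 0.96, 0.92 and 0.92. Oat was most like the vasopressin receptor Avpr1a (0.93), itself a pericentral gene, the ubiquitin ligase scaffold Cul4a (0.93) and the ribonuclease Rnase4 (0.90). In the 8 libraries these stood at 0.93, 0.94 and 0.96. Axin2 and Tbx3 had looser companions, with a highest r of 0.83 for Top1mt and Ap5m1 with Axin2 and 0.83 for Zc3h7a with Tbx3. The third gene for Axin2 was Reps1 (0.81), and for Tbx3 the liver transcription factor gene Prox1 had an r of 0.73.

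The rest of the zonation programme was read from lists of genes. Of 30 other pericentral genes 0 passed in either direction, 10 had a positive log2 change, and the median was -0.06, against -0.03 over all genes tested. An unadjusted p under 0.05 in limma was found for 8 of 30, where 18.5% of all genes tested had one. Most of these 8 were lower with selenium, and the direction of such genes over the whole table was not counted. Of all genes tested 45.4% were positive. The smallest p belonged to Gstm2, a glutathione transferase, at 230.2 ± 104 and 120.4 ± 24.3 TPM (limma adjusted p = 0.117), and Lect2, a secreted liver protein, at 238 ± 91.5 and 148 ± 22.8 TPM (limma adjusted p = 0.139). The abundant members of the list were Mgst1, at 4804 ± 651 and 4587 ± 416 TPM, Cyp3a11, at 2569.5 ± 736 and 1874 ± 282 TPM, Ces1c, at 1141 ± 290.0 and 1209 ± 155 TPM, and Gstm1, at 1213 ± 309.8 and 884 ± 215 TPM. None of these 4 passed, with log2 changes of -0.06, -0.42, 0.12 and -0.45.

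Genes of the opposite zone gave the same count of genes that passed. Of 30 periportal genes 0 passed, 11 were positive and the median was -0.06. An unadjusted p under 0.05 in limma was found for 5 of the 30, again beside 18.5% of all genes tested, and these 5 lay in both directions. Of all genes tested 45.4% were positive. Otc, a urea cycle enzyme, was at 197 ± 15.8 and 149 ± 23.2 TPM (limma adjusted p = 0.121), and Fbp1, of gluconeogenesis, at 418 ± 118 and 654 ± 145 TPM (limma adjusted p = 0.148). The urea cycle enzyme Ass1 was at 1266 ± 269 and 1263 ± 230.3 TPM, with a log2 change of 0.00. Pck1, Apof and Hamp had changes of -0.34, -0.01 and -0.02. The medians of the other pericentral and the periportal lists, both -0.06 over the 12 libraries, were thus the same to 2 decimals in the main fit. In the 8 libraries with low Dbp they were -0.02 and 0.10, beside 0.06 over all genes tested. The difference between the lists was not tested.

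The Wnt signal was followed from ligand to target. All 14 ligand, Rspondin and secretion genes lay below the filter, and Rspo2 and Rspo4 were listed at 0 in all libraries. Rspo3, the Rspondin of central vein endothelium, averaged 0.70 ± 0.195 TPM in control and 0.503 ± 0.226 TPM in selenium libraries, and Wnt5b, Wls and Porcn averaged 0.600 to 1.07 TPM in either group. Of 17 receptors 7 were tested and 0 passed. Lgr4, the Rspondin receptor that is a close relative of Lgr5, was at 5.16 ± 0.438 and 4.11 ± 0.729 TPM (limma adjusted p = 0.212), and Lrp5 and Lrp6, the coreceptors, had log2 changes of 0.19 and -0.12. The kinase-like receptor Ryk stood at 8.21 ± 1.51 and 8.17 ± 1.47 TPM.

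Inside the cell, 18 of 24 genes of beta-catenin, its destruction complex and the TCF factors were tested, 0 passed, and the median was 0.01. Ctnnb1, which encodes beta-catenin, was at 72.5 ± 5.38 and 67.1 ± 10.8 TPM, a log2 change of -0.12. Axin1, the relative of Axin2 that is not a Wnt target, was at 3.39 ± 0.761 and 4.93 ± 1.23 TPM, a change of 0.43 (limma adjusted p = 0.191). The kinase genes Csnk1e, Gsk3a, Csnk1a1 and Csnk1d had changes of -0.35, 0.04, 0.13 and 0.33. Among feedback inhibitors and general targets 7 of 22 were tested and 0 passed. Notum, a Wnt-inactivating enzyme, was at 9.77 ± 2.67 and 8.46 ± 1.37 TPM, and Rnf43, a ligase that removes Wnt receptors, at 2.13 ± 0.509 and 2.91 ± 0.467 TPM (limma adjusted p = 0.197). Myc, at 1.90 ± 0.407 and 1.03 ± 0.467 TPM, had the smallest p of the list (limma adjusted p = 0.117), and Ccnd1 and Ctnnbip1 had changes of 0.48 and -0.06.

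Partners of the nitrogen and drug genes gave no call either. Of 25 genes of glutamine, glutamate and ammonium handling 16 were tested, 0 passed, 9 were positive and the median was 0.04. Gls2, the periportal glutaminase that works against Glul, was at 86.3 ± 7.75 and 69.5 ± 13.8 TPM (limma adjusted p = 0.224). Slc38a3, a glutamine transporter, was at 177 ± 50.6 and 227 ± 38.4 TPM (limma adjusted p = 0.249), and Aldh4a1, of proline breakdown, at 35.9 ± 11.6 and 50.3 ± 6.35 TPM (limma adjusted p = 0.160). Glud1, Cps1 and Slc38a4 had changes of 0.32, 0.20 and 0.26. Of 12 genes of the aryl hydrocarbon receptor pathway 7 were tested and 0 passed, with a median of -0.05. The receptor gene Ahr itself was at 4.88 ± 1.06 and 3.51 ± 1.63 TPM, a change of -0.44 (limma adjusted p = 0.294). Hsp90ab1, a chaperone of the receptor, had a change of 0.44, and Ptges3 and Ugt1a6a had changes of -0.15 and 0.03.

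**Figure D5:**
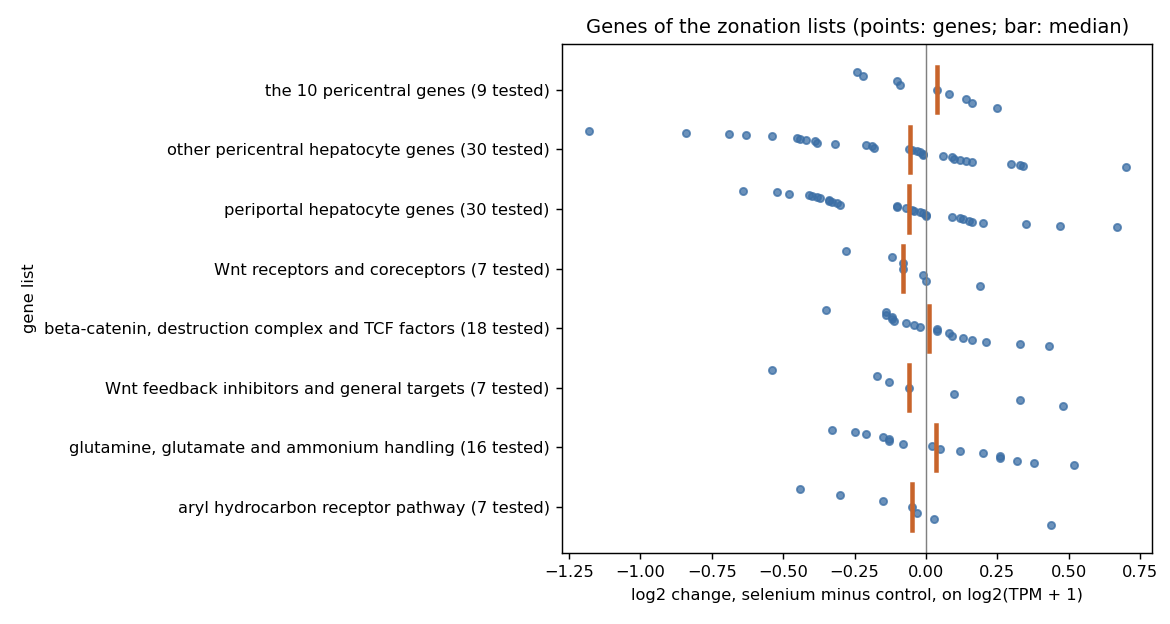
Log2 change (horizontal axis, selenium minus control on log2(TPM + 1)) of each tested gene of the zonation lists (rows); points are genes and orange bars are list medians, which run from -0.08 to 0.04. The 10 pericentral genes, of which 9 were tested, spread from -0.24 to 0.25, less widely than the 30 other pericentral genes, which run from -1.18 to 0.70.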

How the data were processed

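Liver libraries of 6 control and 6 selenium mice were grouped by their titles, whose numbers name libraries; that each is a separate mouse is not stated in so many words, and p-values measure the spread between these libraries. The authors deposited TPM per gene and library, and their processing notes name HISAT2 2.1.0, RSEM 1.2.8, DESeq2 and GRCm39. The deposited series table also holds the authors' log2 fold change and p-values, raw and adjusted. Since TPM has the same sum in every library, depth and counting error are unknown. Single-library tables held the same values in 100.0% of cases (within 1e-09 TPM), and libraries correlated at 0.935 to 0.986.

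Genes with at least 1 TPM in 6 or more libraries, 9980 in all, were fitted on log2(TPM + 1) with limma 3.58.1 in R 4.3.3 (empirical Bayes, intensity trend, two-sided, no covariates, Benjamini-Hochberg adjustment, threshold 0.05). The fit was tested on simulated data. Plots used matplotlib 3.10.9.

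The members, gene lists and alternatives were chosen with earlier results of these data known. The text names the members, the 3 genes most like each, Dbp, and from each zonation list the 4 most abundant genes and the 2 with the smallest p. Alb, Rspo2, Rspo4 and the cell type markers were named besides, and 2 genes that the rule selects are not reported here. Of the names in all lists, 1 (Tf) matched no row. Alternatives covered the pseudocount, filter, scaling, trend, exact permutation, replicate block, single libraries and Dbp.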

Additional observations from a re-analysis of the deposited data

Results flagged for a closer look

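No pericentral member had a library far from the others of its group by Dixon's gap ratio, which was taken in 155 groups of 6 over 78 named genes. It marked 11 groups of other genes, and chance marks about 1 in 20. In controls, control 4 stood high for Avpr1a (17.2 TPM, next 12.6 TPM), Ptges3 (76.1, next 52.9 TPM) and Retsat (262, next 127 TPM), the last being a companion of Cyp2e1, of which control 4 also had the most. Control 6 stood high for Lrp5 (12.1 TPM, next 9.18 TPM) and Slc38a3 (275, next 182 TPM) and low for Otc (166, next 199 TPM) and Rars (12.3, next 13.1 TPM). Control 1 stood high for Top1mt, at 7.31 TPM. Among selenium libraries, selenium 3 stood high for Csnk1e (1.71 TPM), Wls (1.4 TPM) and Wnt5b (2.22 TPM).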

How the results depend on the processing

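Under 24 alternatives 0 members passed in any, and the smallest adjusted p was the 0.0724 of Slc13a3 in the 8 libraries with low Dbp. Of 214 member values under them 13 changed sign, 3 of these without leaving out a single library. One was Glul, at 0.07 in the 8 libraries. The others were Oat and Slc1a2, at -0.05 and -0.01 when mitochondrial-encoded genes were taken out and TPM rescaled. The median over all genes tested was -0.03 in the main fit, 0.06 in the 8 libraries and -0.11 with that rescaling. The 3 sign changes thus went the same way as that median. Leaving out each library gave -0.15 to 0.02 for Glul, 0.13 to 0.40 for Cyp2e1, -0.33 to -0.13 for Cyp1a2, -0.30 to -0.17 for Axin2, -0.02 to 0.14 for Oat, -0.02 to 0.19 for Slc1a2, -0.04 to 0.35 for Rhbg, -0.25 to 0.01 for Tbx3 and -0.09 to 0.45 for Slc13a3. The count over all genes was 33 (2 higher, 31 lower), and 94 (53 higher, 41 lower) with median-of-ratios scaling, 12 with quantile normalization, 190 (6 higher, 184 lower) without mitochondrial-encoded genes, 47 (34 higher, 13 lower) in the 8 libraries with low Dbp, 1 without a filter and 0 by the exact permutation test (1744 at an unadjusted p under 0.05). Leaving out each library gave 7 (without control 2) to 171 (without control 6). With the replicate number as a block 3 genes and 0 members passed. Same-numbered libraries correlated at -0.14 to 0.11, so no strong likeness by number was seen, which cannot settle whether mice were paired. Of 286 list medians 2 moved by more than the spread between libraries, both of them of Wnt lists. That of feedback inhibitors and general targets went from -0.06 to 0.19 in the 8 libraries with low Dbp. That of receptors and coreceptors went from -0.08 to 0.09 with a filter of 5 TPM, which keeps fewer genes. Over all genes tested the medians in these 2 fits were 0.06 and 0.00. TPM give no depth, so values near 1 TPM, such as Lgr5, have unknown counting error.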
